A study of Mus musculus with 2 samples.

Results

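Accessible regions that lay at the ends of several genes at once, and were called in both libraries of a mast cell ATAC-seq comparison, are described here. They were found by merging the peaks of both lists wherever they overlapped by at least 1 bp on chromosomes 1 to 19 and X. A merged region was kept if it held a peak of each list and lay within 1 kb of an end of 2 or more different protein-coding genes. Of 12871 shared regions, 1086 met this rule, which is 8.44% (exact 95% interval 7.96 to 8.93), out of 23364 merged regions in all. The members were chosen by the positions of the called peaks in both lists, so that being open in both libraries is a property of the selection and not a result. The groups were 1 library of Dnmt3a knockout mast cells and 1 library of wild-type mast cells from littermates. Dnmt3a encodes a de novo DNA methyltransferase, and the labels give neither the engineered allele nor a Cre driver. Both cultures came from bone marrow of female mice, aged 3 weeks by the design text and 3 to 4 weeks by the protocol, and were grown for 4 weeks with interleukin 3. Surface staining for Kit and the IgE receptor alpha chain was positive on more than 95% of the cells. With 1 library per genotype no difference between genotypes could be tested, and every interval given covers counting error only.

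Neighbouring genes that are read outward from a common stretch of DNA are called divergent or head-to-head pairs, and the stretch between their starts is a bidirectional promoter. Such promoters are usually rich in CpG dinucleotides, lack a TATA box and serve genes used by most cells, among them genes of DNA repair, mitochondria and the histones. In ATAC-seq the Tn5 transposase inserts adapters where DNA is free of nucleosomes, so a promoter that is bare of nucleosomes appears as a peak.

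The stretch between both starts is shown for 9 divergent pairs, to let the core of these promoters be seen. The first 6 are among the strongest members with a short stretch between the starts, and the last 3 are pairs often cited as bidirectional. All are the plus strand of GRCm38.p6, taken from RefSeq, with the gene on the minus strand named first. Capitals mark matches to any of 13 short promoter motifs on either strand, which are spelled out below with their frequency. The marked motifs need not lie under a peak summit. Summits of both lists fell inside the printed stretch at Dad1/Abhd4 and Mrps12/Sars2. At Npc2/Isca2 only the wild-type summit did, and at Nop14/Grk4 only the knockout summit. At the other pairs shown, both summits lay outside the stretch.
Anxa5/1810062G17Rik: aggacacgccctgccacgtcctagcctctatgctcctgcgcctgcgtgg
Npc2/Isca2: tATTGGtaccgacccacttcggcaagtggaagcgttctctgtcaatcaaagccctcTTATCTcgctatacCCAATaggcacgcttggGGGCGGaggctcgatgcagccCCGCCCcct
Rpgrip1l/Fto: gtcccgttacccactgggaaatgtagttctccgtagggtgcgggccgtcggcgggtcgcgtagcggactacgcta
L3hypdh/Jkamp: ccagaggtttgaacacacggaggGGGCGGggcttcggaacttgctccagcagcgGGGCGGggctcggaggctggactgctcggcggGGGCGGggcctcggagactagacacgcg
Dad1/Abhd4: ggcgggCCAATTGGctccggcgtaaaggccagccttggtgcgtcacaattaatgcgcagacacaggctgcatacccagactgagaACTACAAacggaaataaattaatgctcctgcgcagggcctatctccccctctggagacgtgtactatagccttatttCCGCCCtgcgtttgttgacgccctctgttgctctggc
Nop14/Grk4: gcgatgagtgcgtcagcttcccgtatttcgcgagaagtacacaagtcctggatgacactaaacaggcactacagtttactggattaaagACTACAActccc
Ranbp1/Trmt2a: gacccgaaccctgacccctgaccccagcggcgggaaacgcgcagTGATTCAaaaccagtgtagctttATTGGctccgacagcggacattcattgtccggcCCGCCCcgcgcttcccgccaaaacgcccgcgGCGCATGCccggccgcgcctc
Atm/Npat: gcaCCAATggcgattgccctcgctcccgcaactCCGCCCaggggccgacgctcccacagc
Mrps12/Sars2: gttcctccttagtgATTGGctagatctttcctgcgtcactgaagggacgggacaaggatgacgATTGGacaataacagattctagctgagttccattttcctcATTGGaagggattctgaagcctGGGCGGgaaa

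In the Npc2/Isca2 stretch (chr12:84773113-84773229), capitals mark 1 CCAAT box on each strand, at bases 2 to 6 and 71 to 75, 1 GC box on each strand and a GATA match. Npc2 carries cholesterol out of lysosomes and Isca2 assembles iron-sulfur clusters in mitochondria. In the L3hypdh/Jkamp stretch (chr12:72085434-72085547) the GC box occurs 3 times on the same strand. The Dad1/Abhd4 stretch (chr14:54253930-54254128) holds overlapping CCAAT boxes on opposite strands, a ZNF143 match and a GC box, and the Nop14/Grk4 stretch (chr5:34660149-34660249) holds a ZNF143 match beside the Grk4 start. None of the 13 motifs matched between the starts of Anxa5/1810062G17Rik (chr3:36475888-36475936) or Rpgrip1l/Fto (chr8:91313292-91313366), which says only that these letters were absent from those short windows. The Mrps12/Sars2 stretch (chr7:28741822-28741956), between genes of a mitochondrial ribosomal protein and a mitochondrial seryl-tRNA synthetase, held 3 CCAAT boxes on the minus strand. The remaining stretches are Ranbp1/Trmt2a (chr16:18248695-18248846), with NRF1, CCAAT, GC box and AP-1 matches, and Atm/Npat (chr9:53536829-53536888), with a CCAAT box and a GC box.

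Each library had its own list of peaks, 19684 for knockout and 17170 for wild type, and the members held 1111 and 1127 of them. The summit pileup is the number of reads, extended or not, that overlap at a peak's highest point, here called fragments. It was read back from the authors' fold enrichment and p-value. This assumes that fold is pileup over background after 1 is added to each, and that the p-value is Poisson. The pileup had a median of 9 in both lists. For members it was 14 in the knockout library (range 4 to 44) and 12 in the wild-type library (4 to 47). These are low counts, and the total reads behind each list were not used here. The −log10 q-values and fold enrichments are the authors' own values for each peak. To place them on a common footing, each region's strongest −log10 q was turned into a percentile rank among the 12871 shared regions, separately in each list, so that 50 is the middle and 100 the strongest. The Dnmt3a gene itself held 5 peaks in the knockout list and 6 in the wild-type list, which checks the label only where the unstated deletion lies. Of 27 mast cell effector genes 9 (33.3%) had a shared region within 1 kb of an end. This was near the 28.6% over all protein-coding genes. Of 18 neutrophil, 12 B cell, 15 neuron and 15 liver genes 0 had one. Some macrophage (4 of 18), T and NK cell (2 of 16) and erythroid and megakaryocyte genes (4 of 17) had one.

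Most members lay where gene starts face away from each other. The strand of both genes was known for 809 members at 2 genes. Of these, 620 (76.6%; 73.6 to 79.5) were divergent: in 429 the starts were apart, and in 191 the gene intervals overlapped at their starts. A further 171 (21.1%) lay between the start of a gene and the tail, or downstream end, of its neighbour, 13 at 2 starts on the same strand and 5 at 2 tails. For 255 members the strand of a gene was not in the promoter table used, and 22 members touched 3 genes. The members named 1997 different genes, and of 1004 different gene groups 925 had 1 member, 76 had 2 and 3 had 3.

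Counted from the genes, divergent pairs held a region of both lists more often than other gene ends. Pairs and starts were counted among the 17274 protein-coding genes with a known strand. Of 903 divergent pairs of starts, 576 (63.8%; 60.6 to 66.9) had a shared region within 1 kb of both starts. The share was 27.9% (142 of 509; 24.0 to 32.0) for a start beside the tail of a gene on the same strand. It was 1.10% (8 of 726; 0.477 to 2.16) for 2 tails. Of 14606 starts with no other gene end within reach, 23.7% (3461; 23.0 to 24.4) had a shared region. No region of either list lay at 20.4% of divergent pairs, 61.9% of start-and-tail pairs, 97.2% of tail pairs and 68.2% of lone starts. A divergent pair offers a pair of starts to a peak where a lone start offers itself alone, and this was not adjusted for.

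**Figure D1:**
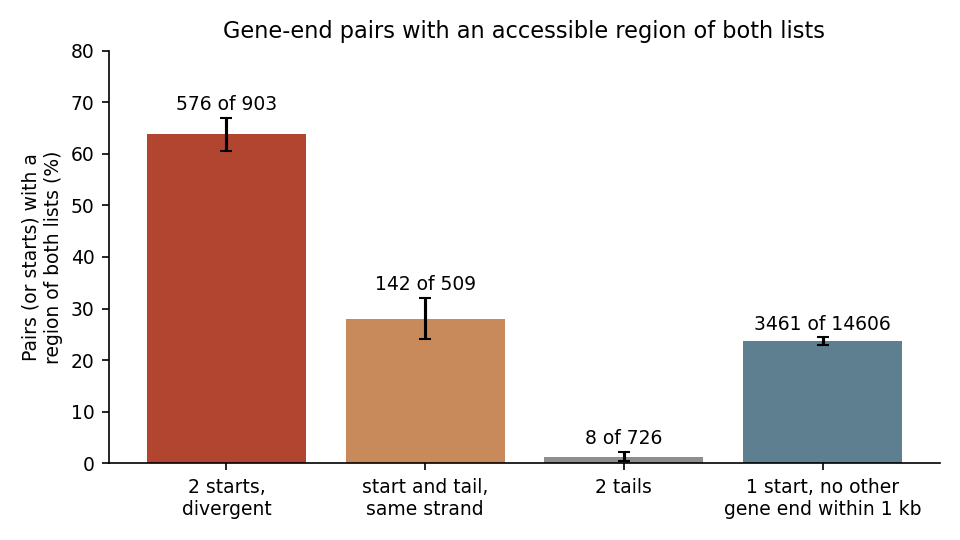
Percent of gene-end pairs (first 3 bars) or of lone gene starts (last bar) with a region of both lists within 1 kb, among genes with a known strand. Error bars are exact 95% binomial intervals that cover counting error only, and the counts stand above the bars. Divergent pairs reach 63.8% and tail pairs 1.10%.

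Divergent members lie within 1 kb of both starts by the rule, so that being near the starts is a property of the selection. Summit positions within that reach are described here. The distance between the starts had a median of 61 bp (quartiles −56.5 and 162 bp; negative where the genes overlap), with extremes of −1464 and 1278 bp. A start here is the outermost end of the gene's interval and not that of a given transcript, so distances and overlaps may differ for the transcripts in use. Among the 429 divergent members whose genes do not overlap, the summit lay between the starts in 234 (54.5%; 49.7 to 59.3) in the knockout list and in 233 (54.3%; 49.5 to 59.1) in the wild-type list. Over all 620 divergent members the summit was a median of 82.75 bp from the midpoint of the starts in knockout cells and 78.25 bp in wild-type cells. Summits within 100 bp of the midpoint made up 56.3% and 58.5%. The region covered both starts in 298 members (48.1%). The distance between the summits of both libraries had a median of 30 bp (28 to 32) over all members, against 29 bp over all shared regions. It was within 100 bp at 93.5% of members and at 94.9% of all shared regions. Shared regions hold overlapping peaks of both lists by the rule, which limits this distance, so closeness of the summits is in part set by the selection.

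**Figure D2:**
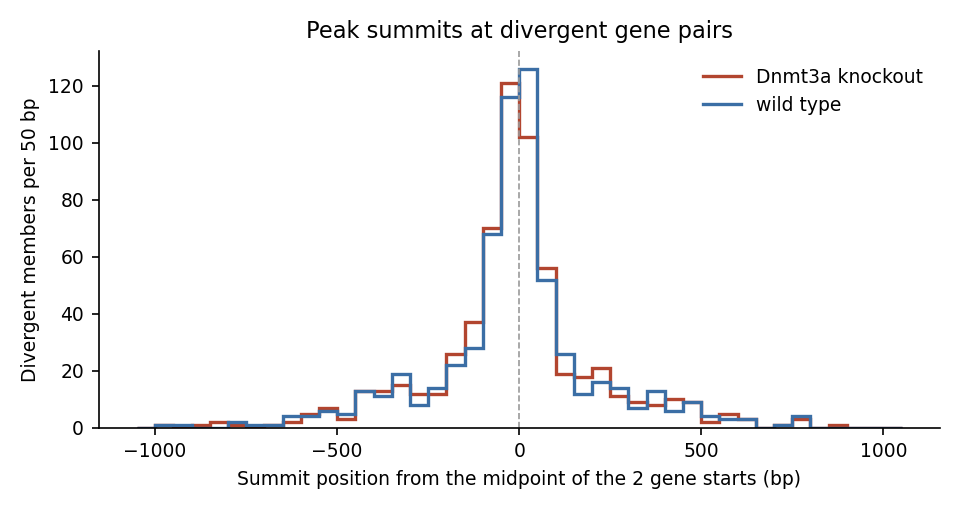
Number of divergent members per 50 bp bin by the position of the peak summit relative to the midpoint of both gene starts, in bp, in the Dnmt3a knockout and wild-type lists. Both outlines peak at the midpoint, with medians of 82.75 and 78.25 bp from it. Regions were kept only within 1 kb of both starts.

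By strength the members ranked above shared regions away from gene ends, which include regions inside genes, and close to those at the end of a single gene. Their median percentile rank was 60.5 in the knockout list and 60.6 in the wild-type list, against 58.2 and 57.1 at the end of 1 gene (4553 regions) and 43.9 and 44.2 at no gene end (7232 regions). In the top 10% of both lists were 112 members (10.3%; 8.57 to 12.3), where the share over all shared regions was 6.03%. It was 9.05% (8.23 to 9.92) at the end of 1 gene, whose interval overlaps that of the members, and 3.48% (3.07 to 3.93) at no gene end. Members also covered more DNA, with a median length of 221 bp (215 to 229) in the knockout list and 203 bp (198 to 211) in the wild-type list. The medians were 210 bp (206 to 213) and 199 bp (195 to 200) at the end of 1 gene, and 175 and 161 bp at no gene end. Width went with strength, with medians over members of 141, 203 and 290 bp in the knockout list and 126, 184 and 282 bp in the wild-type list across weak, middle and strong of 3 equal rank classes. In the middle class the medians were 195 and 180 bp at the end of 1 gene and 181 and 168 bp at no gene end.

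Among members, divergent pairs ranked highest. Divergent pairs without overlap had median ranks of 66.7 in the knockout list and 64.4 in the wild-type list, overlapping divergent pairs 62.0 and 58.7, start-and-tail members 57.6 and 58.9, and the 5 tail pairs 20.9 and 29.8. In the top 10% of both lists were 13.5% (10.4 to 17.1) of non-overlapping divergent members and 6.43% (3.25 to 11.2) of start-and-tail members, with intervals that overlap. Rank differed with the distance between the starts in both lists. Members with starts over 100 and up to 300 bp apart had median ranks of 77.5 and 70.8 (n = 153). With starts 1 to 100 bp apart the medians were 55.7 and 56.2 (n = 198). Peaks of the former covered a median of 259 and 248 bp, and those of the latter 208 and 191.5 bp. The top 10% of both lists held 29 of 153 (13.1 to 26.1%) of the former and 14 of 198 (3.92 to 11.6%) of the latter. In this pair of classes distance, width and rank move together. Over all classes rank did not rise steadily with distance. Median ranks were 70.2 and 63.5 with starts over 300 bp apart (n = 78). They were 60.9 and 61.5 at overlaps of 0 to 300 bp (n = 113), and 65.2 and 56.1 at longer overlaps (n = 78). The top 10% of both lists held 19.2%, 15.0% and 6.41% of these classes, in the same order. This split into distance classes was made with the data known.

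**Figure D3:**
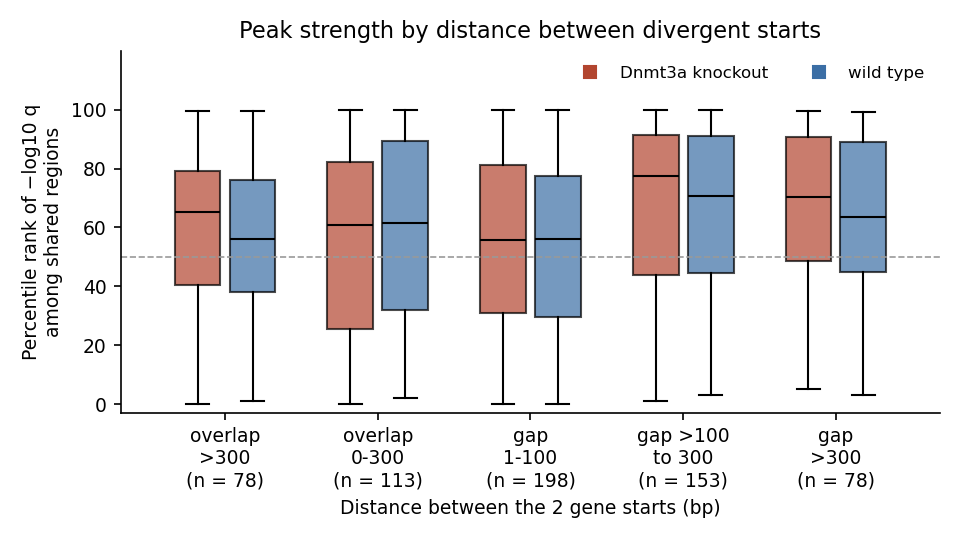
Percentile rank of −log10 q among shared regions (50 is the middle, dashed) for divergent members, by the distance between both gene starts in bp, with the Dnmt3a knockout box left of the wild-type box in each class. Boxes span the quartiles with the median as a line, and whiskers reach the last value within 1.5 box lengths. The class over 100 and up to 300 bp has the highest medians, 77.5 and 70.8.

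By the lower of its ranks in both lists, the strongest member lay at Anxa5/1810062G17Rik (chromosome 3, 36475637 to 36476038). Anxa5 encodes annexin A5, a phosphatidylserine-binding protein. The summit pileup there was 43 in the knockout and 45 in the wild-type library, with −log10 q of 45.8 and 47.9 and ranks of 99.91 and 99.95. Asb7/Lins1 followed with pileups of 44 and 45, and Npc2/Isca2 (chromosome 12, 84772893 to 84773319) with 40 and 41. Galns/Trappc2l, where Galns encodes a lysosomal sulfatase and Trappc2l a vesicle-tethering subunit, had pileups of 41 and 33. All 4 ranked above 99 in both lists. Rpgrip1l/Fto, a ciliary gene beside an RNA demethylase gene, had pileups of 37 and 41. Zfp654/Cggbp1 had 39 and 32, BC005624/Usp20 39 and 33, and L3hypdh/Jkamp 37 and 37. Srgap2/Fam72a, whose starts are −933 bp apart (the genes overlap), had pileups of 43 and 43, and Cdca2/Kctd9 had 43 and 47. The other members among the strongest 12 were both at a start beside a tail. Tomm40/Nectin2, at the start of the gene for the import channel of the outer mitochondrial membrane, had pileups of 39 and 36, and Hyal3/Ifrd2, at the Ifrd2 start, had 33 and 29.

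At start-and-tail members the peak kept to the start. The summit was nearer the start than the tail in 160 of 171 (93.6%; 88.8 to 96.7) in the knockout list and in 157 (91.8%; 86.6 to 95.5) in the wild-type list. It lay a median of 85 and 77 bp from the start, and 487 and 479 bp from the tail. Shared regions at the end of 1 gene with a known strand lay at its start in 3637 of 3771 (96.4%). The 5 tail pairs were weak in both lists with 1 exception. At Lyl1/Nfix (chromosome 8, 84703381 to 84703906) the pileup was 39 in the knockout and 44 in the wild-type library, but the fold enrichment was only 7.23 and 8.57, and the ranks were 81.8 and 95.5. Lyl1 encodes a basic helix-loop-helix factor of blood cells, and this region lay inside its gene interval. The other 4 had pileups of 6 to 9: Atp6v1fnb/Kcp had 9 and 7, Mns1/Tex9 6 and 6, Rai1/Srebf1 6 and 6, and Dnajc3/Uggt2 6 and 8.

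Regions touching 3 genes were of ordinary strength. Their median ranks were 53.0 in the knockout list and 47.9 in the wild-type list (n = 22), and they were singled out after their values were seen. The strongest was Psme3ip1/LOC115486880/Rspry1 on chromosome 8, with pileups of 28 and 25 and ranks of 96.4 and 96.7. Mmp24/BC029722/Eif6 had pileups of 21 and 20, and Atf5/Nup62/Il4i1b, where Atf5 encodes a stress-response transcription factor and Nup62 a nuclear pore protein, had 26 and 19. The histone cluster member H2ac21/H2ac20/H2bc21 had 14 and 15. Topors/Smim27/Ndufb6 and Rad17/Ak6/Taf9 each held 2 members side by side. At Topors/Smim27/Ndufb6 the stronger region had pileups of 20 and 11, and the weaker 10 and 7.

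Counting intervals of the summit pileups overlapped between both libraries at every member. This was largely fixed in advance, because the pileups are low and members hold a peak of both lists. Overlapping intervals do not show that the libraries are equal. A member's rank in the knockout list was 25 points or more higher than in the wild-type list for 128 members (11.8%; 9.93 to 13.9), where the share over all shared regions was 13.9%. It was 25 points or more lower for 118 (10.9%; 9.08 to 12.9), against 13.6% over all shared regions. Exact Poisson 95% intervals of the summit pileups were apart between the libraries at 0 of 1086 members and at 2 of 12871 shared regions. More knockout than wild-type peaks lay in 20 members (1.84%, against 1.81% over all shared regions), and fewer in 37 (3.41%; 2.41 to 4.67, against 2.42%).

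**Figure D4:**
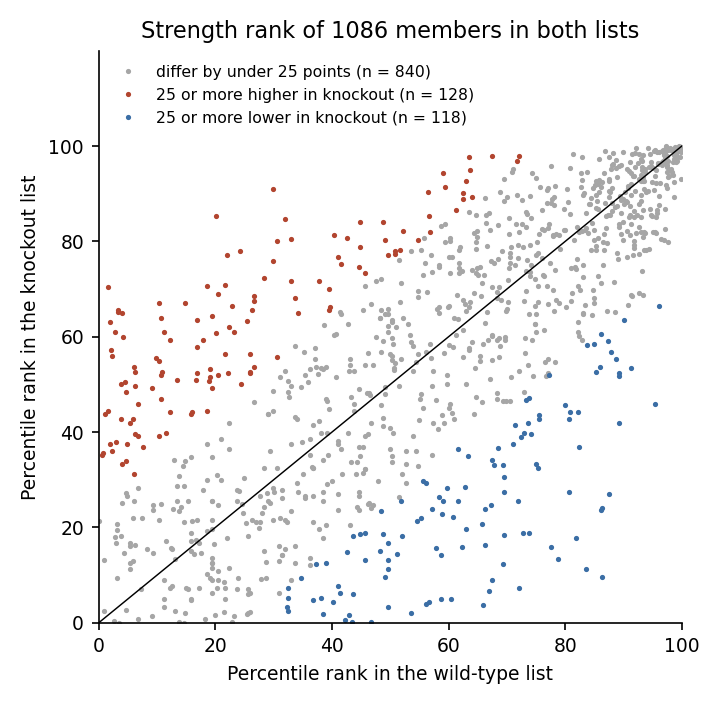
Percentile rank of −log10 q of the 1086 members in the knockout list (vertical) against the wild-type list (horizontal), with the line of equal rank. The 128 members ranked 25 points or more higher in the knockout list are red, and the 118 ranked that much lower are blue.

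The members named next had the widest rank differences and were picked for them, so their values are a description. Lsm11/Thg1l (chromosome 11, 45944971 to 45945143) had pileups of 14 in the knockout and 4 in the wild-type library, with exact Poisson intervals of 7.65 to 23.5 and 1.09 to 10.2. Lsm11 encodes a subunit of the U7 particle that trims histone transcripts, and Thg1l a tRNA-modifying enzyme. Cox15/Cutc had pileups of 19 and 8 (ranks 85.4 and 20.1), where Cox15 encodes an enzyme of heme A synthesis. Recql5/Sap30bp, at a gene for a RecQ helicase, had 19 and 7. Clk2/Scamp3 had 13 and 6, Abi3/Gngt2 14 and 6, and Cmc4/Mtcp1/Brcc3 12 and 5. In the other direction, Ptcd1/Cpsf4 (chromosome 5, 145167027 to 145167255) had pileups of 7 in the knockout and 16 in the wild-type library, with intervals of 2.81 to 14.4 and 9.15 to 26.0. Ptcd1 encodes a mitochondrial RNA-binding protein and Cpsf4 a subunit of the polyadenylation machinery. Saxo2/Efl1 had 6 and 14, Ccdc77/Kdm5a 8 and 16, Shkbp1/Sptbn4 7 and 13, Atraid/Cad 7 and 13, and Ogfod3/Hexdc 9 and 17. The intervals overlapped at all 12.

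Genes of 9 lists of basic cell functions lay at members at shares whose intervals lay above that of all genes, while proteasome, cytosolic ribosomal protein, cell cycle and mast cell lists had intervals that include it. Over all 21631 protein-coding genes, 9.23% lay at a member, and 28.6% had any shared region within 1 kb of an end. All 9 lists also exceeded that 28.6%, from 47.8% for histones to 72.5% for chaperones, and shares at members were not adjusted for this. Over 26 gene lists with 1089 genes the share at a member was 19.4% (17.1 to 21.9). It was 38.8% (26 of 67) for replication-dependent histones, which package newly made DNA, and 35.6% (32 of 90) for DNA repair. It was 33.7% (33 of 98) for respiratory chain subunits and their assembly factors, 30.0% (12 of 40) for chaperones, 29.7% (11 of 37) for tRNA synthetases and 29.3% (22 of 75) for mitochondrial ribosomal proteins. Spliceosome genes had 24.6% (15 of 61) and DNA replication genes 22.6% (12 of 53), and 12 of 60 RNA polymerase and Mediator genes lay at a member. Proteasome genes (9 of 50; 8.58 to 31.4%) and cytosolic ribosomal protein genes (13 of 86, 15.1%; 8.30 to 24.5) were lower, although 66.3% of the cytosolic ribosomal protein genes had some shared region. Histone genes of a cluster share members, so their 26 genes lay at 14 regions.

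**Figure D5:**
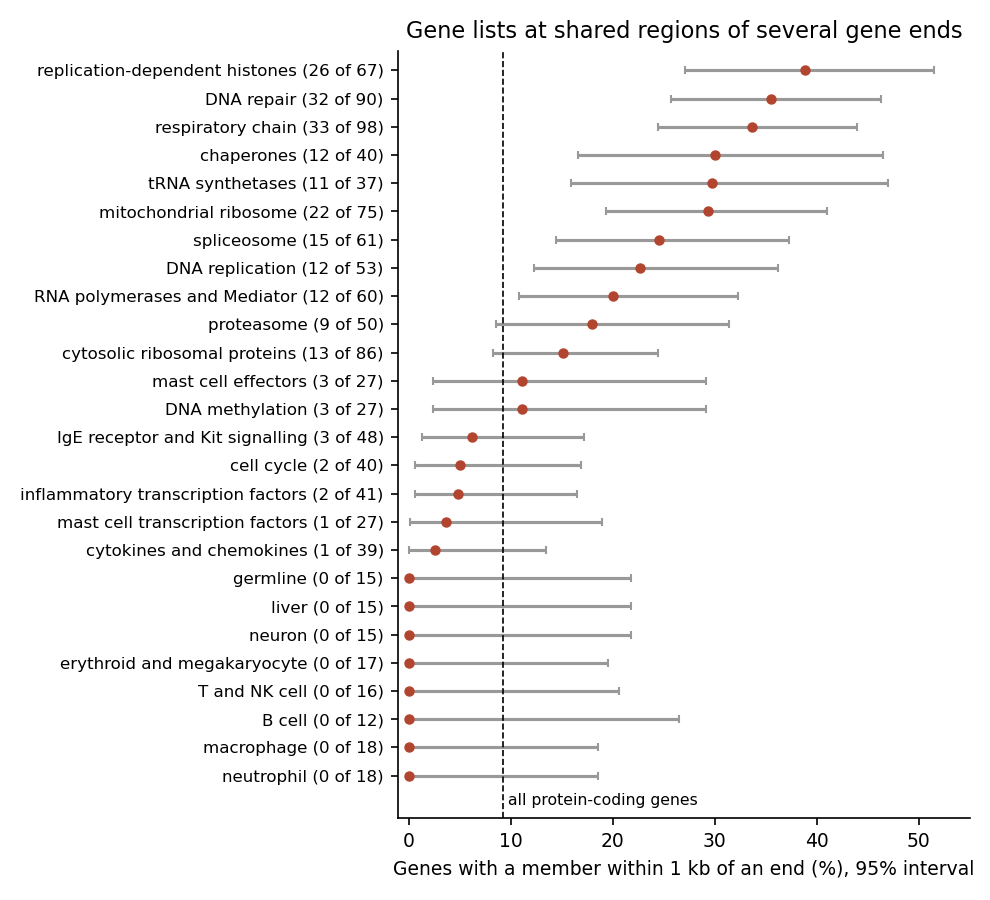
Percent of the genes of each of 26 lists with a member within 1 kb of an end, with exact 95% binomial intervals and the counts beside the names. The dashed line is 9.23%, the share over all protein-coding genes, and the upper 9 lists have intervals above it.

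DNA repair genes lay at 34 members, 22 of them divergent, with median ranks of 65.1 in the knockout list and 66.4 in the wild-type list. The strongest was Xrcc4/Tmem167 (chromosome 13, 90089447 to 90089785). Xrcc4 is a partner of DNA ligase in end joining. Its pileup was 38 in the knockout and 25 in the wild-type library, and its ranks 99.9 and 97.3. Xrcc3/Zfyve21, where Xrcc3 acts in recombination, had pileups of 24 and 27. Mospd2/Fancb, with a Fanconi anemia gene, had 20 and 19. Of the DNA replication genes, Pcna/Cds2, with the sliding clamp of DNA polymerase, had 28 and 26, Rpa3/Umad1 23 and 19, and Pold1/Nr1h2 18 and 19. Cell cycle genes lay at 2 members from a list of 40 genes: Ccna2/Bbs7, with cyclin A2, had pileups of 20 and 20, and Aurka/Cstf1, with a mitotic kinase, had 17 and 14.

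Genes of mitochondria gave members on both sides of the middle. Mrpl47/Ndufb5 (chromosome 3, 32736741 to 32737089) joins a mitochondrial ribosomal protein gene to a complex I subunit gene and had pileups of 35 in the knockout and 21 in the wild-type library. Ptcd2/Mrps27 had 21 and 22, Mrpl41/Pnpla7 24 and 22, and Abhd8/Mrpl34 22 and 23. The 35 members at respiratory chain genes had median ranks of 38.0 in the knockout list and 52.0 in the wild-type list. The strongest named for this list beside Mrpl47/Ndufb5 were Ndufs8/Aldh3b1 with pileups of 22 and 21, Wdr4/Ndufv3 with 20 and 16 and Ndufaf2/Ercc8 with 16 and 14. Of the 35, 10 (28.6%) ranked 25 points or more lower in the knockout list and 2 higher, where all shared regions gave 13.6% and 13.9%. Of the 10 lower members, picked after their values were seen, Ndufs3/Kbtbd4 had pileups of 4 and 7, Ndufb1/Cpsf2 8 and 10, Uqcr10/Zmat5 7 and 9, Sdhd/Timm8b 7 and 9, Atp5c1/Kin 8 and 12, and Ndufa2/Ik 8 and 16. The higher ones were Topors/Smim27/Ndufb6 and Uqcrb/Gm10767, the second with pileups of 9 and 6. Cytosolic ribosomal proteins lay the other way, with median ranks of 47.9 and 20.5 over 13 members, 4 of them higher and 0 lower by that limit. Lrsam1/Rpl12 had pileups of 10 and 6, Rps27/Rab13 11 and 7, Pidd1/Rplp2 10 and 7, and Trappc4/Rps25 11 and 8. Rpl15/Nkiras1 (27 and 23) and Card6/Rpl37 (23 and 18) were strong in both. Such list medians rest on pileups that differ by a few fragments, and no difference between the libraries was tested.

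Chaperone genes gave the members with the highest list medians among lists with at least 10 members, 80.6 in the knockout list and 81.9 in the wild-type list over 12 members. Tbccd1/Dnajb11 had pileups of 25 and 24, Hsp90b1/Ttc41 26 and 27, and Bag1/Chmp5 23 and 18. Dnajb11 and Hsp90b1 encode folding factors of the endoplasmic reticulum. Among tRNA synthetase genes, Wars/Wdr25 had 21 and 17, S100pbp/Yars 19 and 17, and Lyrm4/Fars2 16 and 15. Among spliceosome genes, Dhx38/Txnl4b had 28 and 29, Gucd1/Snrpd3 22 and 27, Snrpa/BC024978 20 and 20, and Qpctl/Snrpd2 20 and 19. RNA polymerase and Mediator genes included Tmx2/Med19 with 30 and 33, Lnx2/Polr1d with 19 and 20, Dzank1/Polr3f with 16 and 20, and Polr3c/Rnf115 with 15 and 13. Psme2/Rnf31, with a proteasome activator gene beside a ubiquitin ligase gene, held 2 members with pileups of 22 and 21 and of 19 and 16, and Psmd8/Catsperg1 had 19 and 11.

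Histone genes lie in clusters in which an H2A and an H2B gene are read outward from a common promoter. H2ac15/H2bc15 (chromosome 13, 21753821 to 21754117) had pileups of 18 in the knockout and 15 in the wild-type library. H2ac11/H2bc11 had 15 and 10, H2ac12/H2bc12 12 and 9, H2ac22/H2bc22 11 and 10, H2ac8/H2bc8 11 and 14, and H3c3/H2bc3 11 and 13. These 6 are divergent pairs. At H2ac6/H2bc4 the pileups were 13 and 19, and at H2ac10/H3c8, a start beside a tail, 17 and 21. Over the 14 members of the histone list, the median ranks were 43.8 and 49.6, below the 60.5 and 60.6 over all members, while H2ac15/H2bc15 ranked above them at 76.3 and 68.5. Near-identical histone genes may share reads, and how such reads were counted is not given in the sources used here.

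Mast cell, signalling, cytokine and inflammatory factor genes lay at members at shares whose intervals include the 9.23% over all genes. Of 27 effector genes 3 lay at a member (11.1%; 2.35 to 29.2), close to the 9.23% over all genes. Ndst2/Camk2g, where Ndst2 sulfates the heparin of mast cell granules, had pileups of 13 in the knockout and 18 in the wild-type library and ranks of 28.5 and 62.8. Sergef/Tph1, near the tail of the serotonin synthesis gene Tph1, had 13 and 13 and ranks of 14.6 and 17.6. Of 27 mast cell transcription factor genes only Lyl1 lay at a member, the tail pair Lyl1/Nfix described above. Of 48 IgE receptor and Kit signalling genes 3 did (6.25%). Cks1b/Shc1, where Shc1 encodes a signalling adaptor, had pileups of 18 and 22, and Shc1/Pygo2 15 and 12. Hras/Lrrc56, at a RAS gene, had 10 and 14. Of 39 cytokine genes only Tgfb1 did, at B9d2/Tgfb1 with pileups of 19 and 17 but folds of 6.02 and 5.57. Of 41 inflammatory transcription factor genes the members were Nfkbib/Sirt2 (18 and 19) and Nfkbie/Slc35b2 (17 and 13), both at genes for inhibitors of NF-κB. Of the marker genes of neutrophils, macrophages, B cells, T and NK cells, erythroid cells, neurons and liver, and of 15 germline genes, 0 lay at a member. The upper interval bounds of these short lists were 18.5 to 26.5%, so they include 9.23% as well.

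Of 27 DNA methylation genes, 3 lay at a member (11.1%; 2.35 to 29.2), near the 9.23% over all genes. Idh1/Pikfyve (chromosome 1, 65186512 to 65186774) had pileups of 24 in the knockout and 13 in the wild-type library and ranks of 95.0 and 63.7, and Idh1 makes a metabolite that TET enzymes need. Mbd4/Ift122, with a thymine glycosylase gene, had 14 and 15. Mbd1/Cfap53, with a gene for a protein that binds methylated CpG, had 16 and 12. Methylation was not measured in these libraries.

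Of 24 gene pairs listed as bidirectional or head-to-head neighbours, 14 had a member. Over all 903 divergent pairs of starts with known strands, 576 (63.8%) had a shared region at both starts, so the listed pairs did not stand out. Hspd1/Hspe1 (chromosome 1, 55087933 to 55088349), the mitochondrial chaperonin pair, had pileups of 29 in the knockout and 21 in the wild-type library and ranks of 95.9 and 89.3. Atp5j/Gabpa had 22 and 15. Atm/Npat, which joins a DNA damage kinase gene to a gene for an activator of histone transcription, had 20 and 14. Ranbp1/Trmt2a had 18 and 15, Mcm4/Prkdc 17 and 17, Gart/Son 16 and 19, and Cdc45/Ufd1 16 and 12. At the weak end were Mrps12/Sars2 with 9 and 9, Psmb9/Tap1 with 6 and 8, and Ndufs3/Kbtbd4 as above. Psmb9 and Tap1 serve antigen presentation. Some pairs held 2 members each. Ppat/Paics, with genes of purine synthesis, had pileups of 18 and 17 at one region and 17 and 15 at the other, and Brca1/Nbr1 had 16 and 15 at the stronger and 8 and 10 at the weaker. Of the 10 pairs without a member, 5 had no region of either list at either gene. Surf1/Surf2, Col4a1/Col4a2, Nthl1/Tsc2 and Brca2/Zar1l were among them. The closest ends of Brca2/Zar1l are 4103 bp apart in this annotation. Psmd13/Sirt3 held separate peaks of each list that did not overlap, so it is no member. Trp53/Wrap53, Tk1/Afmid and Bloc1s1/Rdh5 each had 1 region of a single list.

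In sequence, promoters of genes at divergent members were rich in CpG, as were those of other genes with an open start. RefSeq promoter windows ran from 250 bases before to 49 bases after each start. The ratio of observed to expected CpG was over 0.6 in 87.4% (85.4 to 89.3) of 1130 genes at divergent members, in 81.9% (80.6 to 83.2) of 3433 genes whose start lay at a shared region of 1 gene, and in 48.9% (48.2 to 49.7) of all 17274 genes in the table. Median GC content was 62.2%, 62.0% and 56.3% in the same order. The ETS motif (CCGGAAG) was found in 28.1% (25.5 to 30.9) of promoters at divergent members, against 20.5% (19.2 to 21.9) at single starts and 12.1% over all genes. The YY1 motif (AAGATGGCG) was found in 6.46% (5.10 to 8.05), 3.85% (3.23 to 4.54) and 1.92%, and the BANP-like motif (TCTCGCGAG) in 3.36%, 1.54% and 1.04%. The ZNF143 motif (ACTACAA) was found in 7.61% (6.13 to 9.31), 5.33% (4.60 to 6.14) and 3.87%, and the first 2 intervals overlap. The promoter windows of a pair can overlap, so that 1 match may count for both genes, and the intervals are then too narrow.

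The remaining motifs were not more frequent at divergent members than at single starts beyond their intervals. The CCAAT box of NF-Y was found in 47.4% of promoters at divergent members, in 46.4% at single starts and in 39.6% of all. The GC box (GGGCGG) was less frequent at divergent members than at single starts, in 68.4% (65.6 to 71.1) against 73.6%, whose interval starts at 72.1, and was found in 46.9% of all. NRF1 (GCATGCGC) was found in 5.49%, 6.06% and 3.64%. The CRE (TGACGTCA) was found in 3.45%, 3.55% and 2.36%, and the E-box (CACGTG) in 10.7%, 11.2% and 8.01%. The TATA box (TATAAA) was less frequent at open starts, with 4.60%, 5.94% and 13.4%. Motifs of blood cell factors were also less frequent there than over all genes, with 5.75%, 5.21% and 9.99% for the motif AGATAA of GATA factors, 2.92%, 3.50% and 4.86% for TGTGGTT of RUNX factors, and 3.27%, 4.22% and 7.09% for TGANTCA of AP-1. All motifs were searched on both strands, and a match is a run of letters and no measure of binding. Among the 620 divergent members, the 374 with a CCAAT box in either promoter had median ranks of 70.6 in the knockout list and 68.5 in the wild-type list, against 54.5 and 55.3 for the 246 without. The medians were 67.3 and 64.9 with a GC box (n = 503) and 51.9 and 50.3 without it (n = 117), and 73.5 and 71.7 with a ZNF143 match (n = 63) and 64.4 and 61.8 without (n = 557). For ETS they were 66.8 and 66.7 with a match and 64.6 and 61.1 without, and for AP-1 67.1 and 63.6 with and 64.9 and 62.1 without. The share in the top 10% of both lists went the other way for ETS, with 11.8% with a match and 13.5% without. None of the motif contrasts in rank was adjusted for the distance between the starts, with which rank also differed. Members with other motifs ranked lower than those without in both lists. The medians were 53.1 and 32.0 with a BANP-like match (n = 26) and 65.8 and 63.5 without, 54.1 and 54.5 with GATA (n = 56) and 65.8 and 63.6 without, and 54.4 and 43.9 with RUNX (n = 26) and 65.6 and 63.5 without. The direction differed between the lists for CRE (58.6 and 75.2 with, 65.7 and 61.9 without), YY1 (71.5 and 55.3 with, 65.0 and 63.4 without), NRF1, the E-box and the TATA box.

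Long and divided members were few. The longest were Khsrp/Slc25a41 (chromosome 17, 57031514 to 57032309), with pileups of 35 and 30, Rnf5/Agpat1 with 26 and 27, and Ubxn6/Hdgfl2 with 39 and 35. The summits at Khsrp/Slc25a41 lay 277 bp apart. The members with most peaks included Zfp36l1/Gm52006, with 3 knockout peaks and 1 wild-type peak, and Rab2b/Tox4, Zkscan14/Zkscan5 and AB124611/Carm1. Another shared region lay within 1 kb of 172 members (15.8%), a knockout-only region of 55 (5.06%) and a wild-type-only region of 59 (5.43%). The same shares over all shared regions are not given here, so these counts do not set members apart from other regions. By chromosome, members made up 4.02% of shared regions on chromosome 18 (14 of 348) and 12.7% on chromosome 7 (118 of 932).

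At the 1 kb limit, the members just inside were Myd88/Acaa1a, with its second gene end 999 bp away and pileups of 35 and 23, Actr1a/Sufu at 986 bp with 19 and 14, and Celsr3/Slc26a6 at 983 bp with 20 and 21. Just outside were the regions at Tulp3/Rhno1 (1001 bp), Tjp3/Pip5k1c (1005 bp) and Wfdc21/Heatr6 (1005 bp), with ranks of 63.1 and 62.1, 96.2 and 97.8, and 12.6 and 11.2. An end of 2 or more genes was overlapped by 407 members, and 87 members counted a gene named only by a Gm, LOC or Rik number.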

How the data were processed

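ATAC-seq was done in 1 Dnmt3a knockout and 1 wild-type culture. Per the labels' protocols, a 0.1% Igepal buffer freed the nuclei, the Tn5 enzyme was home-made, and single 50 bp reads were sequenced at a depth given as 10 M. The submitters' processing notes name Trimmomatic, Bowtie2, MACS2, mm10 and GRCm38. The sources used here give no versions or parameters and name no Tn5 shift, and a shift would move peak edges by a few bases.

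The authors deposited 1 peak list per library, with a score, a fold enrichment as a ratio, and the −log10 of p and q per peak. The deposited score was not used beyond a check of the format. The whole-number summit pileup was recovered from the authors' fold and −log10 p for 100% of peaks (tolerance 0.001 in −log10 p).

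Peaks were merged at 1 bp of overlap, and a region took its strongest peak in each list. Gene intervals and promoter windows came from RefSeq tables of GRCm38.p6, the build mm10 names. The table gives a strand through its promoters, matched for 1680 of the 1997 genes at members (84.1%) and 17274 of 21631 protein-coding genes. Exons and introns are not resolved, and coordinates are 1-based. Shares have exact (Clopper-Pearson) 95% intervals, medians of lengths and distances have order-statistic intervals, and pileups exact Poisson intervals, all for counting error only. PCR copies are not independent molecules. Python 3.11.15, NumPy 2.4.6, pandas 2.3.3, SciPy 1.17.1 and Matplotlib 3.10.9 were used. The steps were tested on simulated data.

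The members, gene lists, motifs and named regions were chosen with earlier results of these data known. Named regions were the 12 strongest by the lower of both ranks, the 6 with the widest rank difference in each direction, those at the listed bidirectional pairs, up to 4 strongest per gene list (all for the mast cell lists), the 5 with most peaks, the 3 longest and the 3 on each side of the 1 kb limit. Some regions that these rules name are not reported here. Members at 4 or more genes were also to be named and numbered 0. Other members and regions at 3 genes, at 2 tails, at respiratory chain, ribosomal and histone genes, and the stretches printed, were picked after their values were seen. Alternatives were gene ends of 500 bp and 2 kb, all gene types, a reciprocal overlap of 50%, a −log10 q of at least 5, no chromosome X, ranks by fold, and nearest summits. Leaving out genes with Gm, LOC or Rik names and taking starts from the promoter table were added after the data were seen.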

Additional observations from a re-analysis of the deposited data

How the results depend on the processing

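No paired analysis was possible because there was only 1 library of each genotype. Alternatives were a reciprocal overlap of 50%, a −log10 q of at least 5, no chromosome X, ranks by fold and nearest summits. The shares and medians computed under each stayed within the counting error of those reported. The number of members has no such interval and fell from 1086 to between 993 and 1062 in the first 3. Starts taken from the promoter table gave the same divergent share, 76.6%. There the start nearest to the interval end already used was taken, so this result was largely fixed in advance. The gene-end rule moved more, by its own construction. Members made up 6.95% of shared regions with gene ends of 500 bp, 10.8% with 2 kb, 14.9% with all gene types (1922 regions) and 7.84% without Gm, LOC and Rik genes. Divergent members were 81.9%, 65.9% and 82.1% with 500 bp, 2 kb and all gene types, and list genes at a member 16.4%, 23.8% and 25.8%. With all gene types, cytosolic ribosomal protein genes came to 31.9% and IgE receptor and Kit signalling genes to 18.75%. With 500 bp, 0 mast cell transcription factor genes remained, as Lyl1 dropped out. Summit pileups of about 10 fragments limit every comparison of a single region between the libraries.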

Other observations

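Regions called in a single library also lay at the ends of several genes, though less often. Of 6541 knockout-only regions 256 did (3.91%; 3.46 to 4.41), and of 3952 wild-type-only regions 195 (4.93%; 4.28 to 5.66), against 8.44% of shared regions. Taking regions at any gene end alone, those at several ends made up 15.8% (14.1 to 17.7) of knockout-only, 195 of 1085 (15.7 to 20.4%) of wild-type-only and 19.3% (18.2 to 20.3) of shared regions. Unshared regions were weaker as a class, and these shares were not matched on strength. Of the 903 divergent pairs of starts, 81 had a knockout-only region and no other at both starts, 46 a wild-type-only region and no other, and 16 one of each without a shared region.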
